A study of Homo sapiens with 16 samples.

Results

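The genes described here encode the machinery of autophagy, the process by which a cell encloses part of its cytoplasm in a membrane sac and delivers it to the lysosome. With earlier results of these data known, they were chosen as a fixed list of 41 gene symbols, restricted to rows annotated as protein-coding. Of these, 40 were listed in both of the authors' deposited tables, among 13210 protein-coding genes and 16324 genes in all. MAP1LC3A, an LC3 gene, was not among the listed rows under that symbol and was not analysed here.

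The study sequenced RNA recovered with Strep-tagged proteins (RIP-seq). It names the cells as UM-SCC-1, an established head and neck squamous carcinoma line. Cells were made to express an empty Strep vector (Vec), Strep-ALKBH5 or Strep-RBM33 from a lentivirus and were kept under puromycin. ALKBH5 is an enzyme that takes the methyl group of m6A off RNA, and RBM33 is an RNA-binding protein; the study asked whether both bind the same RNAs and whether ALKBH5 needs RBM33 to reach them. The sample titles give 16 libraries in 6 groups: for Vec 3 pull-down and 3 input libraries, for ALKBH5 3 and 3, and for RBM33 2 and 2. Every group carried a construct, so no library came from cells without the virus, and each bait was expressed from a transgene. The labels do not say that replicates were separate cultures, so the p-values may measure technical spread only.

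The values are those of 2 comparisons the authors made with edgeR, 1 per bait. For each gene they give its log2 fold change, its abundance as an average log2 CPM (counts scaled to library size) over the libraries of that comparison, and a p-value adjusted by Benjamini and Hochberg's method over the 16324 genes. A gene is called here when the authors' adjusted p is under 0.05. The tables hold no value per library, so depth is unknown and no standard deviation, standard error or library count can be set beside a value. Both comparisons are labelled siCtrl, and neither the groups compared nor the direction of the ratio is stated. In the authors' deposited table of each bait, the bait's own mRNA was positive, ALKBH5 at 1.28 and RBM33 at 3.41, but a pull-down and its input would both carry the transgene, so this does not settle the sign. "Positive" and "negative" therefore refer to the sign as deposited, and no value is read as bound or unbound. Whether the comparisons share libraries is also not stated, and differences between them were not tested, so values for the baits are set side by side and a like sign is not counted as support. Of 7 squamous epithelial markers looked up, 2 were listed, DSP at an average log2 CPM of 6.86 and CDH1 at 0.60 in the authors' deposited table for ALKBH5. TP63, KRT5, KRT14, KRT6A and KRT17 were not among the listed rows, for a reason that is not known. CDH1 lay far below the median average log2 CPM of all listed genes, 4.05, and DSP above it. The markers thus do not establish that the cells are squamous. That identity is taken from the study's description and was not tested. Of 12 fibroblast, leukocyte and endothelial markers, COL1A1, LUM and CD68 were listed, with average log2 CPM of 4.42, -0.33 and 0.78 in the authors' deposited table for ALKBH5. The fibroblast marker COL1A1 thus lay above the median of 4.05, and LUM and CD68 below it.

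Autophagy starts when the ULK kinase complex is activated, as in starvation, when mTOR complex 1 no longer holds it back. A lipid kinase built on PIK3C3 and BECN1 then marks the growing membrane with the lipid PI3P, PI3P-binding WIPI proteins settle on it, and ATG9A and the ATG2 proteins supply lipid. Conjugating enzymes attach the small ATG8 proteins (LC3 and GABARAP) to the membrane, and receptors such as SQSTM1 (p62) tie cargo to them. In squamous carcinoma, as in other tumours, the pathway is known as a response to nutrient and oxidative stress.

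The machinery did not share a single sign. Among the 40, the mRNAs of the ATG8 proteins and of the cargo receptors all lay below 0. All of these but NBR1 in the RBM33 comparison were negative calls. In contrast, ULK1, AMBRA1, both ATG2 genes, both ATG16L genes and ATG4B were positive in both comparisons. For ALKBH5, the authors' deposited table called 14 of the 40 mRNAs positive and 16 negative, and 10 did not pass. The share called was 75% of these mRNAs, against 59.6% of all listed genes (30.5% positive, 29.1% negative) and 60.8% of the protein-coding ones (27.5% positive, 33.3% negative). For RBM33, the authors' deposited table called 10 positive and 14 negative, and 16 did not pass. The share called was 60% of these mRNAs, against 51.1% of all listed genes (24% positive, 27% negative) and 52.7% of the protein-coding ones (21.5% positive, 31.2% negative). Abundance moved with these shares. In the authors' deposited table for ALKBH5, 32 of the 40 mRNAs had at least the median average log2 CPM of all listed genes, and 27 of these were called (84.4%), against 74.1% of protein-coding genes of that abundance. The authors' deposited table for RBM33 gave 22 of 31 (71.0%) against 67.2%, so the share called in that comparison was close to its background.

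The middle of the list sat where protein-coding genes sit. The median log2 fold change of the 40 was -0.08 for ALKBH5 in the authors' deposited table, as was that of all protein-coding genes (-0.08). For RBM33 it was 0.04, beside -0.13 for protein-coding genes in the authors' deposited table. The values spread from -1.80 to 3.20 for ALKBH5 and from -2.23 to 2.54 in the RBM33 comparison, as the authors' deposited tables give them. With a minimum size of 1 log2 unit, 18 of the 40 were called in the authors' deposited table for ALKBH5 (9 positive, 9 negative), when 37.2% of all listed genes were (21% positive, 16.2% negative). For RBM33, 16 were (6 positive, 10 negative) in the authors' deposited table, when 33.8% of all listed genes were (17.1% positive, 16.7% negative). No member was positive in 1 table and negative in the other. Of the 40, the authors' deposited tables both called 10 positive and 14 negative, neither called 10, and 6 passed for ALKBH5 alone. The same counts over all listed genes were not made, so these are not read as particular to the list.

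**Figure D1:**
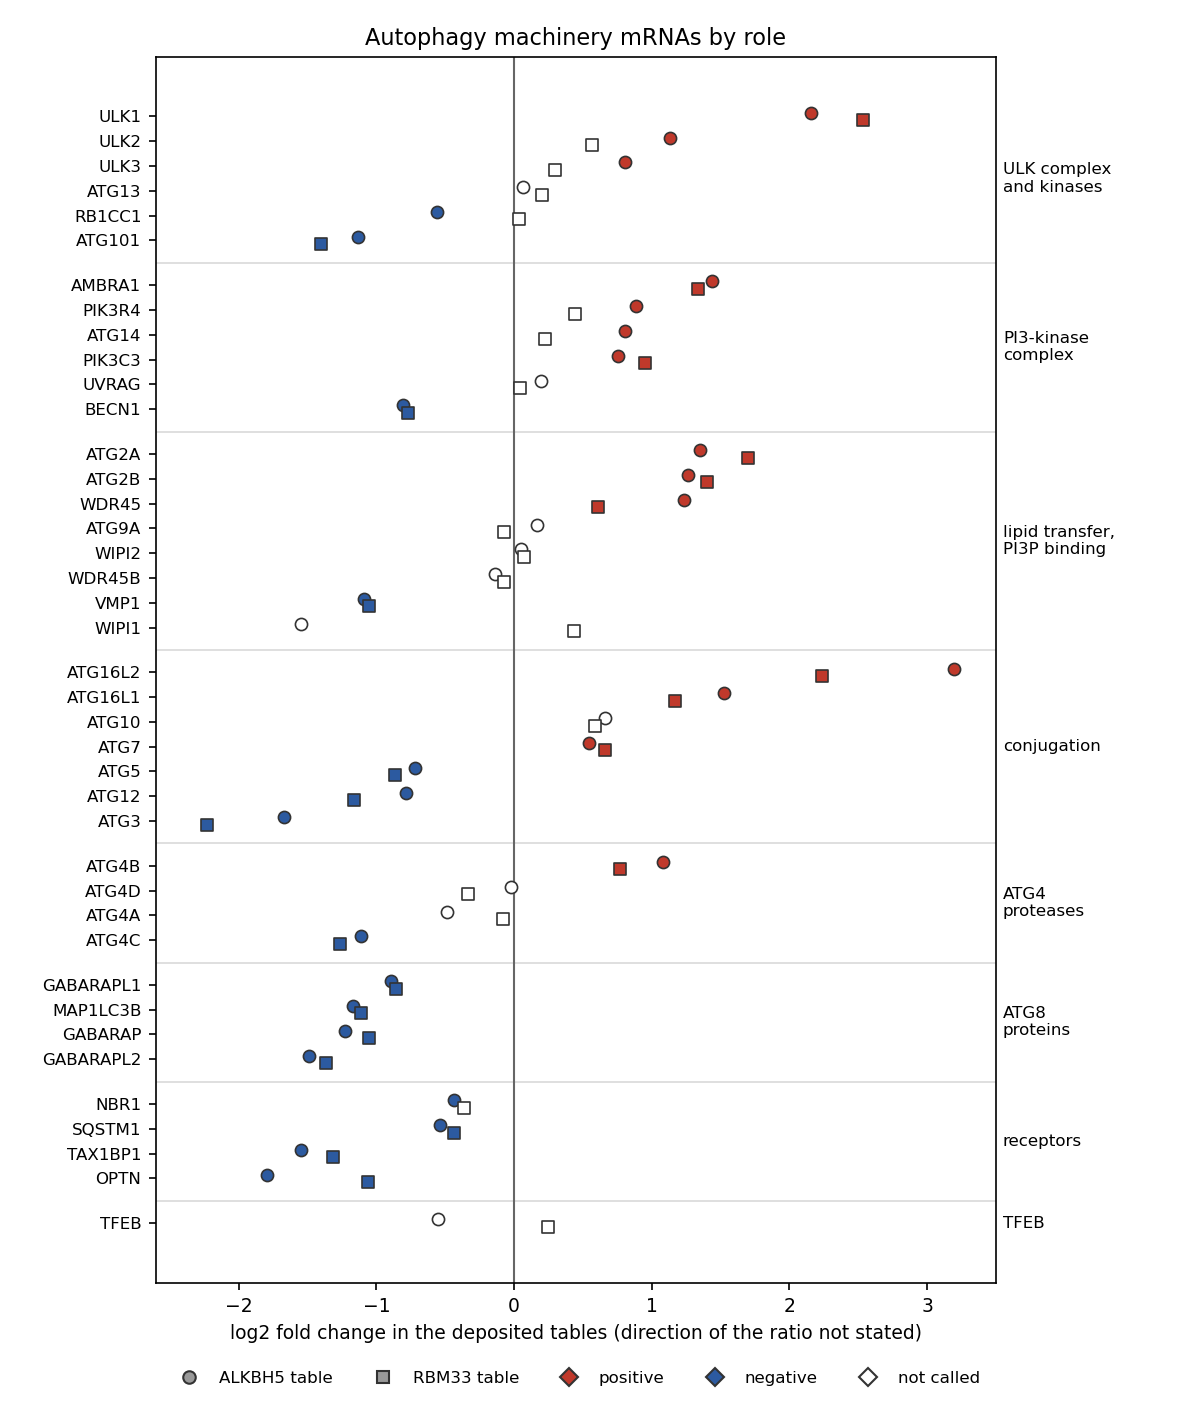
Log2 fold change of the 40 autophagy machinery mRNAs (horizontal axis, as deposited) by role, with circles for the ALKBH5 table and squares for the RBM33 table; red marks positive calls, blue negative calls and white no call at an adjusted p of 0.05. All ATG8 and receptor symbols lie left of 0, and the other groups with several members hold symbols on both sides.

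Among the initiation genes, ULK1 was positive and its partner ATG101 negative in both comparisons. ULK1, the kinase that starts autophagosome formation (ENSG00000177169, chromosome 12, 131894622 to 131923150, hg38), stood at a log2 fold change of 2.16 for ALKBH5 (adjusted p = 2.4e-06) and 2.54 for RBM33 (adjusted p = 1.92e-05) in the authors' deposited tables. It stood at percentiles 96.2 and 98.6 of protein-coding genes there, at average log2 CPM of 4.65 and 4.21. ATG101, which stabilises ATG13 in the same complex (ENSG00000123395, chromosome 12, 52069246 to 52077494, hg38), was negative at -1.14 (adjusted p = 0.000411) and -1.40 (adjusted p = 0.000911) in the authors' deposited tables for ALKBH5 and RBM33. Its average log2 CPM was 4.95 and 4.57 there. ATG13, the regulatory subunit between them, was not called at 0.07 and 0.21 in the authors' deposited tables.

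The other kinases of the family were called for ALKBH5 only. ULK3, a related kinase (ENSG00000140474, chromosome 15, 74836118 to 74843346, hg38), was positive at 0.81 for ALKBH5 (adjusted p = 0.000289) and not called at 0.30 for RBM33 (adjusted p = 0.128) in the authors' deposited tables. Its average log2 CPM was 5.55 and 5.61 there. ULK2, the close paralog of ULK1, had 1.13 (adjusted p = 0.000549) and 0.57 (adjusted p = 0.224) in the authors' deposited tables. RB1CC1 encodes FIP200, the large scaffold of the complex; it was negative at -0.56 for ALKBH5 (adjusted p = 0.00124) and stood at 0.03 for RBM33 (adjusted p = 0.869) in the authors' deposited tables. Whether the baits differ on these mRNAs was not tested, since that needs values per library.

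In the PI3-kinase group, BECN1 was the negative member beside positive partners. AMBRA1, a scaffold that binds BECN1 and regulates ULK1 (ENSG00000110497, chromosome 11, 46396414 to 46594125, hg38), had 1.44 for ALKBH5 (adjusted p = 7.95e-06) and 1.33 for RBM33 (adjusted p = 0.00017) in the authors' deposited tables, with average log2 CPM of 4.92 and 4.79. BECN1, the subunit through which the kinase is regulated (ENSG00000126581, chromosome 17, 42810134 to 42833350, hg38), had -0.81 (adjusted p = 3.88e-05) and -0.77 (adjusted p = 0.00262) in the authors' deposited tables. Its average log2 CPM was 6.19 and 6.17 there. The kinase subunit itself, PIK3C3, was positive at 0.76 and 0.95 in the authors' deposited tables. PIK3R4, its regulatory partner, was positive at 0.88 for ALKBH5 (adjusted p = 0.00111) and not called at 0.44 for RBM33 (adjusted p = 0.181) in the authors' deposited tables. ATG14, which directs the kinase to autophagosome formation, had 0.81 (adjusted p = 0.00687) and 0.22 (adjusted p = 0.456) in the authors' deposited tables. UVRAG takes the place of ATG14 in the complex of later endosomal steps; it was called in neither, at 0.20 and 0.04 in the authors' deposited tables. In the authors' deposited tables, this group of 6 thus held 4 positive members and 1 negative one in the ALKBH5 comparison, and 2 and 1 in that of RBM33. Of all listed genes, 30.5% were positive and 29.1% negative there for ALKBH5, and 24% and 27% for RBM33.

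Genes for lipid supply and PI3P binding held both ends. ATG2A and ATG2B encode large proteins that move lipid from the endoplasmic reticulum into the growing membrane. ATG2B (ENSG00000066739, chromosome 14, 96279195 to 96363341, hg38) was positive at 1.27 for ALKBH5 (adjusted p = 2.74e-05) and 1.40 for RBM33 (adjusted p = 9.3e-05) in the authors' deposited tables, with average log2 CPM of 5.57 and 5.76. ATG2A (ENSG00000110046, chromosome 11, 64894546 to 64917211, hg38) was positive at 1.35 (adjusted p = 3.33e-05) and 1.70 (adjusted p = 0.000263) in the authors' deposited tables, with average log2 CPM of 4.71 and 4.13. The paralogs thus lay near each other in both comparisons as deposited. They lay farther apart against genes of like listed length, a comparison described after the roles. There ATG2A came to 1.09 for ALKBH5 and 1.42 for RBM33, and ATG2B to 0.57 and 0.70. VMP1, a scramblase of the endoplasmic reticulum needed for autophagosome formation (ENSG00000062716, chromosome 17, 59707192 to 59842255, hg38), was negative at -1.09 for ALKBH5 (adjusted p = 1.01e-05) and -1.05 for RBM33 (adjusted p = 0.000475) in the authors' deposited tables. Its average log2 CPM was 5.20 and 5.34 there. ATG9A, the scramblase carried by vesicles to the site, was called in neither, at 0.17 and -0.08 in the authors' deposited tables.

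Of the 4 PI3P-binding WIPI-type proteins, WDR45 alone was called, when 59.6% of all listed genes were called for ALKBH5 and 51.1% for RBM33. WDR45, a partner of the ATG2 proteins, was positive at 1.23 and 0.61 in the authors' deposited tables. WIPI2, which recruits ATG16L1, stood at 0.05 and 0.07, and WDR45B, the paralog nearest to WDR45, at -0.14 and -0.07, in the authors' deposited tables. The authors' deposited tables put WIPI1 at -1.55 for ALKBH5 and 0.44 for RBM33, with neither value passing (adjusted p = 0.0651 and 0.788). It was the scarcest of the 40 per kilobase of listed length, with average log2 CPM of 0.36 and 0.52 there.

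The conjugation genes held both signs, also within single steps. In this pathway ATG7 is the activating enzyme, ATG3 and ATG10 are the conjugating enzymes, and ATG12 joined to ATG5 forms with ATG16L1 the complex that places ATG8 proteins on the membrane. ATG16L2, a paralog of ATG16L1 whose role in autophagy is less clear (ENSG00000168010, chromosome 11, 72814406 to 72843674, hg38), had the highest value of the 40 for ALKBH5, 3.20 (adjusted p = 2.9e-07), and 2.24 for RBM33 (adjusted p = 0.000232) in the authors' deposited tables. It lay at percentiles 99.0 and 97.7 of protein-coding genes there, at average log2 CPM of 3.74 and 2.93. ATG16L1 was positive as well, at 1.52 and 1.17 in the authors' deposited tables.

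ATG3 stood at the other end. ATG3, the enzyme that transfers ATG8 proteins to lipid (ENSG00000144848, chromosome 3, 112532510 to 112562046, hg38), had -1.67 for ALKBH5 (adjusted p = 8.45e-07) and -2.23 for RBM33 (adjusted p = 1.14e-05) in the authors' deposited tables. These values lay at percentiles 5.04 and 1.32 of protein-coding genes there, at average log2 CPM of 5.89 and 6.47. ATG12, the ubiquitin-like protein joined to ATG5 (ENSG00000145782, chromosome 5, 115828200 to 115841837, hg38), had -0.79 (adjusted p = 0.000206) and -1.17 (adjusted p = 0.000167) in the authors' deposited tables, with average log2 CPM of 5.17 and 5.74. ATG5, its partner in the conjugate, was negative too, at -0.72 and -0.86 in the authors' deposited tables. ATG7, which activates both ATG12 and the ATG8 proteins, was positive at 0.54 and 0.66 in the authors' deposited tables. ATG10, the enzyme that joins ATG12 to ATG5, stood at 0.66 and 0.59 and was called in neither of the authors' deposited tables. The members of the ATG12, ATG5 and ATG16L1 complex thus carried both signs in each comparison.

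The ATG4 proteases trim ATG8 proteins before conjugation and release them from lipid afterwards, and their mRNAs differed among paralogs. ATG4B, the main processing enzyme (ENSG00000168397, chromosome 2, 241637213 to 241673857, hg38), was positive at 1.08 for ALKBH5 (adjusted p = 4.18e-05) and 0.77 for RBM33 (adjusted p = 0.00391) in the authors' deposited tables, with average log2 CPM of 5.42 and 4.97. ATG4C (ENSG00000125703, chromosome 1, 62784132 to 62865516, hg38) was negative at -1.11 (adjusted p = 0.000247) and -1.26 (adjusted p = 0.000405) in the authors' deposited tables, with average log2 CPM of 4.78 and 5.30. ATG4A at -0.49 and -0.08, and ATG4D at -0.02 and -0.34, were called in neither of the authors' deposited tables.

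The ATG8 proteins themselves are the small ubiquitin-like tags of the autophagosome membrane. Their mRNAs were negative for 4 of the 4 members in both comparisons as deposited. As background, 29.1% of all listed genes were negative for ALKBH5 and 27% for RBM33. Against genes of like listed length, described after the roles, GABARAP came to -0.22 for ALKBH5 and turned to 0.04 for RBM33. GABARAPL2 (ENSG00000034713, chromosome 16, 75566375 to 75577881, hg38) had the lowest value of the family, -1.49 for ALKBH5 (adjusted p = 4.84e-05) and -1.37 for RBM33 (adjusted p = 0.000153) in the authors' deposited tables. Its average log2 CPM was 5.07 and 5.36 there. MAP1LC3B, whose protein is the usual laboratory marker of autophagosomes (ENSG00000140941, chromosome 16, 87383953 to 87404779, hg38), had -1.17 (adjusted p = 1.5e-05) and -1.11 (adjusted p = 0.00156) in the authors' deposited tables, with average log2 CPM of 5.13 and 5.62. GABARAP stood at -1.23 and -1.05, and GABARAPL1 at -0.89 and -0.86, in the authors' deposited tables. These 4 members spanned a range of 0.59 log2 units for ALKBH5 and 0.51 for RBM33 by the authors' deposited tables. That was the narrowest of the 7 roles with several genes. MAP1LC3B has a near-identical copy, MAP1LC3B2 (-0.58 and -0.42, not called in the authors' deposited tables), and reads may be split between them.

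The cargo receptors among the members were negative for 4 of 4 genes in the ALKBH5 comparison and for 3 of 4 in that of RBM33. Negative calls made up 29.1% and 27% of all listed genes in these comparisons. TAX1BP1, a receptor for protein aggregates and bacteria (ENSG00000106052, chromosome 7, 27739331 to 27844564, hg38), had -1.55 for ALKBH5 (adjusted p = 5.93e-07) and -1.32 for RBM33 (adjusted p = 3.58e-05) in the authors' deposited tables, with average log2 CPM of 6.33 and 6.57. OPTN, a receptor in mitophagy (ENSG00000123240, chromosome 10, 13099449 to 13138308, hg38), had the lowest value of the 40 for ALKBH5, -1.80 (adjusted p = 1.25e-05), and -1.06 for RBM33 (adjusted p = 0.00874) in the authors' deposited tables. It lay at percentiles 3.67 and 18.6 of protein-coding genes there, at average log2 CPM of 4.75 and 4.81. SQSTM1, the receptor p62 for ubiquitinated cargo, was negative by less, at -0.54 and -0.43 in the authors' deposited tables. NBR1, which works with SQSTM1 on aggregates, was negative at -0.44 for ALKBH5 (adjusted p = 0.0124) and not called at -0.36 for RBM33 (adjusted p = 0.103) in the authors' deposited tables.

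TFEB encodes the transcription factor that switches on genes of lysosomes and autophagy. The TFEB mRNA (ENSG00000112561, chromosome 6, 41683978 to 41736259, hg38) stood at -0.55 for ALKBH5 (adjusted p = 0.195) and 0.24 for RBM33 (adjusted p = 0.779) in the authors' deposited tables. Its average log2 CPM was 1.99 in each, and WIPI1 alone was lower per kilobase of listed length.

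Abundance differed widely among the 40. Levels of different genes are compared per kilobase of listed gene length, on a log2 scale, computed from the average log2 CPM of the authors' deposited tables. SQSTM1 was the highest, at 4.02 in the ALKBH5 comparison and 4.10 in that of RBM33, followed by WDR45B at 3.80 and 4.01. WIPI1 was the lowest, at -1.40 and -1.25. Negative values went with abundance: across the 40 mRNAs the log2 fold change and the average log2 CPM had a Spearman rho of -0.27 for ALKBH5 and -0.50 for RBM33, beside -0.27 and -0.27 across the 13210 protein-coding genes. These are descriptions across genes, which are not independent replicates, and both quantities come from the same libraries.

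Values also went with listed gene length, the length in bases that the tables give for each gene and not that of 1 transcript. Across the 40 mRNAs, the Spearman rho between listed length and log2 fold change was 0.39 for ALKBH5 and 0.40 for RBM33, beside 0.41 and 0.45 across protein-coding genes. By genomic span, from the start to the end of the gene, it was 0.21 and 0.29, beside 0.22 and 0.24. The mRNAs positive for ALKBH5 had a median listed length of 7646.5 bases, those negative 5882.5 and those not called 5084.5. For RBM33 these medians were 7753, 5396.5 and 5411. The relation had exceptions at both ends: TAX1BP1, with 9165 listed bases, and ATG12, with 8867, were negative, and ULK3, with 3514, was positive for ALKBH5.

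**Figure D2:**
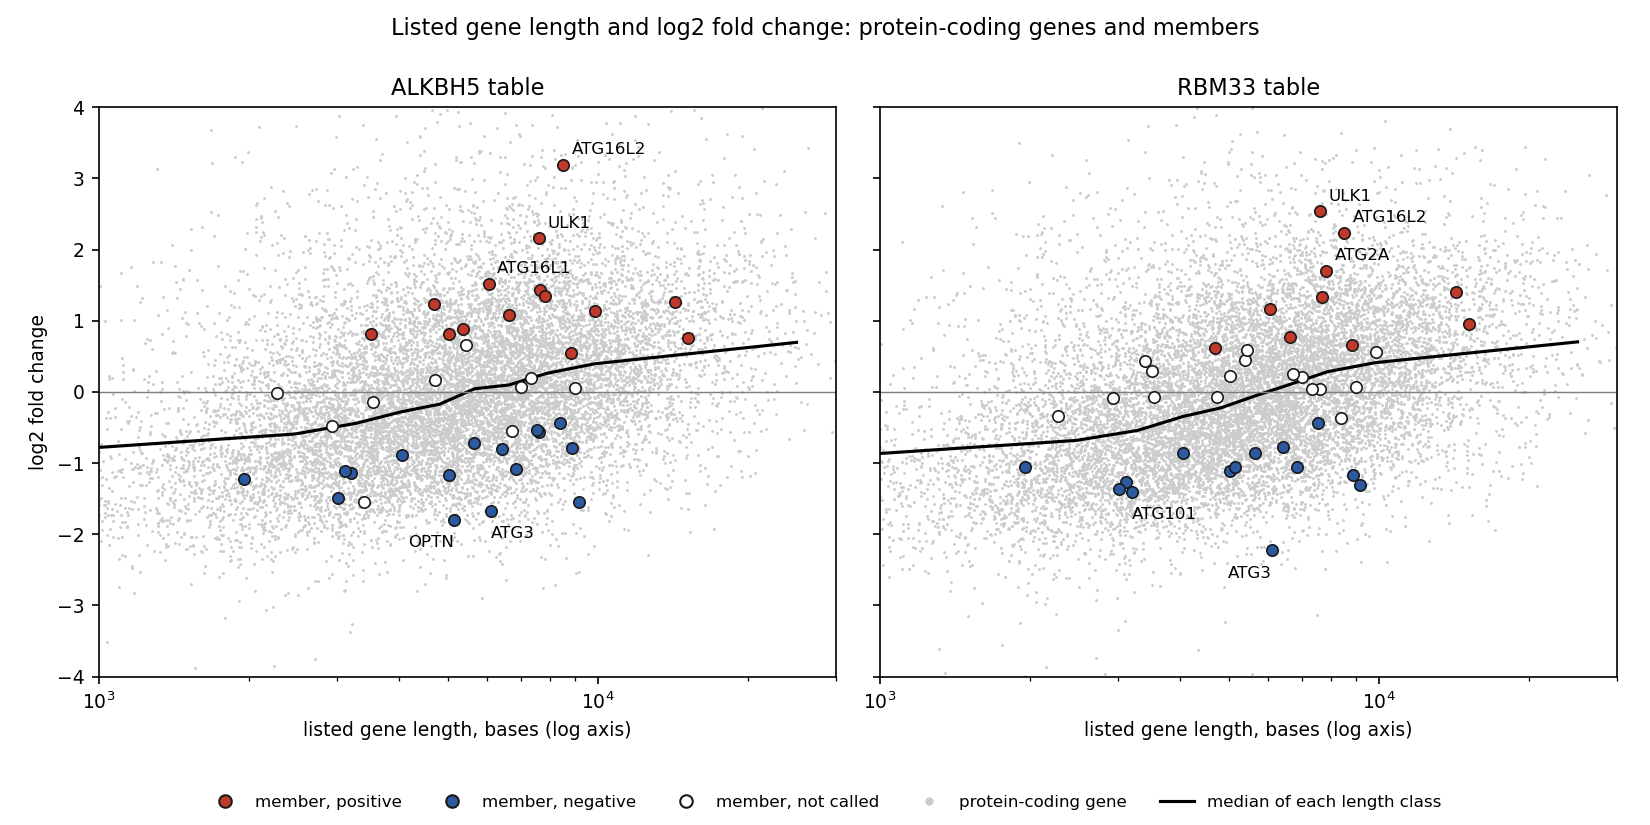
Listed gene length in bases (log axis) against log2 fold change as deposited, for protein-coding genes within the axes (grey), the median of each of 10 length classes (line) and the 40 mRNAs (coloured by call; the 3 highest and 2 lowest are named). The line climbs from negative to positive values, and ATG3 and OPTN lie below it while ATG16L2 and ULK1 lie above.

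Each mRNA was therefore also set against protein-coding genes of like length, by subtracting the median log2 fold change of its length class, 1 of 10 of nearly equal size. Those medians ran from -1.01 in the shortest class to 0.70 in the longest for ALKBH5, and from -1.09 to 0.70 for RBM33. The receptors had medians of -1.21 for ALKBH5 and -0.78 for RBM33 under this comparison, beside -1.04 and -0.75 in the authors' deposited tables, with 4 of 4 below the median of their class in each. They did not all move the same way: TAX1BP1 reached -1.94 and -1.73, farther from 0, whereas OPTN came closer to it, at -1.62 and -0.84. The ATG8 genes came closer to 0, with medians of -0.80 and -0.67 in place of -1.20 and -1.08. MAP1LC3B stayed at -0.996 and -0.889, but GABARAP, which has 1951 listed bases and lies in the shortest class, came to -0.22 for ALKBH5 and changed sign to 0.04 for RBM33. ATG3 kept -1.71 and -2.18, and ATG16L2 kept 2.94 and 1.96. PIK3C3, in the longest class with 15170 bases, came down to 0.06 and 0.25. The median of all 40 was -0.05 for ALKBH5 and 0.14 for RBM33 on this scale, with 18 and 23 of them above their class. The part of length in the deposited values was not tested beyond this.

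**Figure D3:**
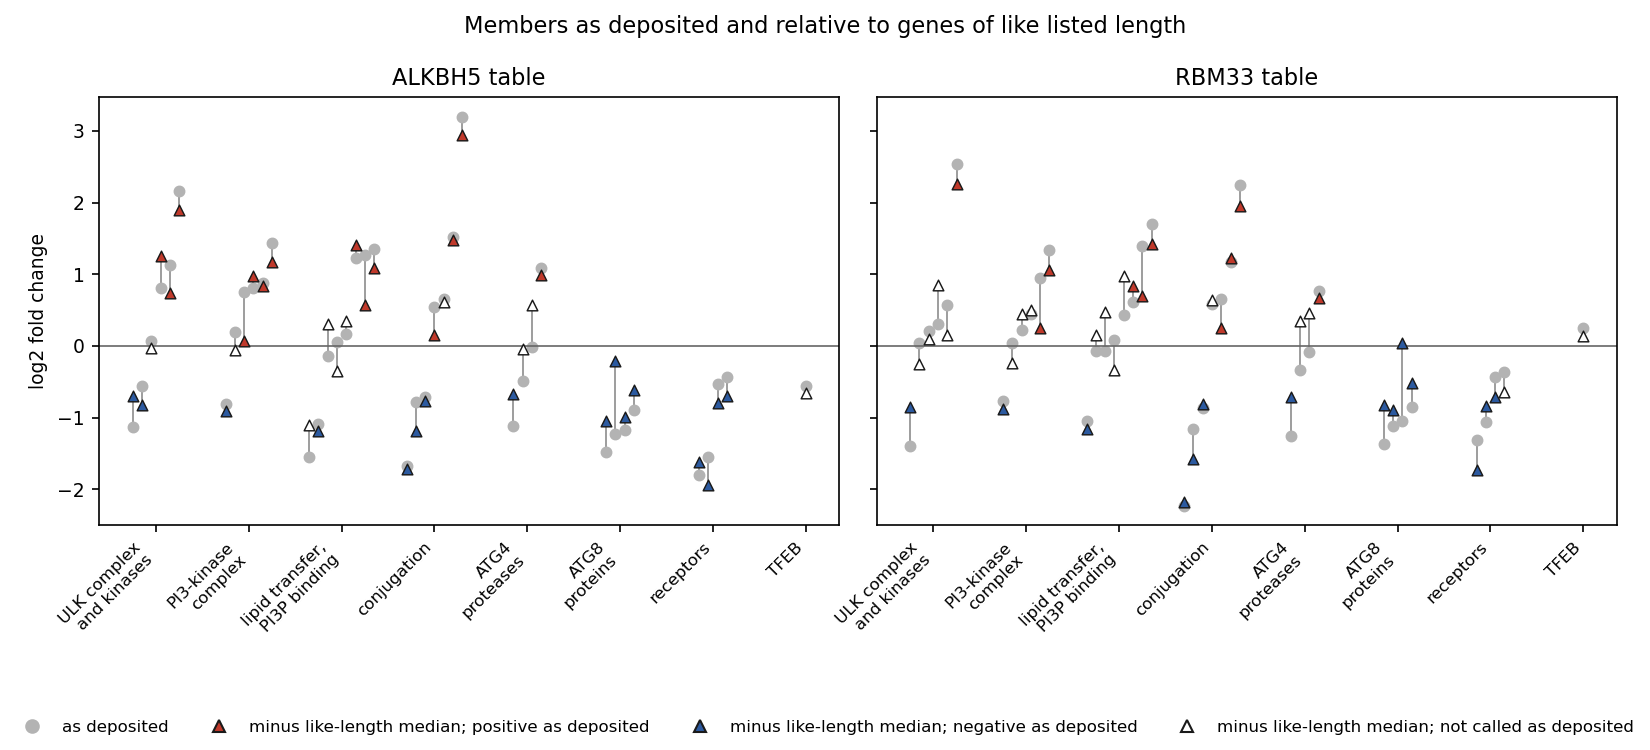
Log2 fold change of each mRNA as deposited (grey circles) and after subtracting the median of protein-coding genes of like listed length (triangles, coloured by the call as deposited), by role, for each table. All receptor triangles lie below 0, and GABARAP is the negative call that reaches 0.04 in the RBM33 panel.

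Many of these genes overlap a neighbour in the genome. The strand setting of the counting is not given in the sources used here, and 22 of the 40 genes overlap another listed gene, 5 of them on the same strand and 17 on the opposite strand. ATG16L1 contains SCARNA5 and SCARNA6, small RNAs of Cajal bodies on its own strand, which the authors' deposited tables put at 5.03 and 4.56 for ALKBH5 and at 3.75 and 3.53 for RBM33. GABARAP shares 2023 bases of its locus with the protein-coding row AC120057.2 on the same strand, whose values of -1.21 and -1.07 in the authors' deposited tables were nearly those of GABARAP. WDR45 overlaps AC231657.3 over 5455 bases on the same strand, and that row was of opposite sign, at -0.68 and -0.65 in the authors' deposited tables. On the opposite strand, BECN1 shares 8966 bases with PSME3, a proteasome activator gene at -1.48 and -1.12 in the authors' deposited tables. MAP1LC3B shares 8190 bases with FBXO31, at 1.41 and 1.28 in the authors' deposited tables. ATG10 shares 3538 bases with the ribosomal protein gene RPS23, at -2.05 and -2.20 in the authors' deposited tables and an average log2 CPM of 8.40 and 8.78. These overlaps are of whole loci, introns included. How far reads of these neighbours enter the values was not tested. By position the 40 genes lie on 17 chromosomes, with 7 on chromosome 17 and 5 on chromosome 11.

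Other genes of the pathway were read from 5 lists, of which 75 distinct genes were listed. As background to their counts, the authors' deposited table for ALKBH5 called 30.5% of all listed genes positive and 29.1% negative, and that for RBM33 called 24% positive and 27% negative. In the authors' deposited tables, further cargo receptors held 11 negative mRNAs and 1 positive among 16 in the ALKBH5 comparison. In that of RBM33, 12 were negative and 1 positive. The median in each of the authors' deposited tables was -1.05, beside 0.03 and -0.02 over all listed genes and -0.08 and -0.13 over protein-coding ones. Against genes of like listed length, the median of these receptors came closer to 0, at -0.62 for ALKBH5 and -0.68 for RBM33. SEC62, a receptor for endoplasmic reticulum, had -1.94 (adjusted p = 5.27e-07) and -1.79 (adjusted p = 1.12e-05) in the authors' deposited tables. BNIP3, a mitophagy receptor, had -1.51 (adjusted p = 6.13e-06) and -1.57 (adjusted p = 1.68e-05) there. The positive exception was WDFY3, a very large adaptor for aggregates with 17168 listed bases. It had 1.59 (adjusted p = 1.1e-06) and 1.69 (adjusted p = 1.59e-05) in the authors' deposited tables. Against genes of like listed length, WDFY3 came down to 0.89 and 0.98. Genes of lysosomal enzymes, membrane proteins and the proton pump held 10 negative and 4 positive mRNAs among 23 for ALKBH5, with -0.54 as their median, as the authors' deposited table gives them. In the RBM33 comparison, the authors' deposited table had 12 negative and 1 positive, and their median was -0.63. Against genes of like listed length, these medians came to -0.49 for ALKBH5 and -0.56 for RBM33. The share of this list called in either direction was 60.9% and 56.5%, near the 59.6% and 51.1% of all listed genes in the authors' deposited tables. PSAP, the precursor of saposins, had -0.97 (adjusted p = 2.05e-05) and -1.03 (adjusted p = 0.000346), and CTSB, a protease, -1.02 (adjusted p = 3.06e-05) and -1.06 (adjusted p = 0.000347), in the authors' deposited tables.

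The remaining lists held both signs. Genes of autophagosome fusion and maturation had 4 positive and 4 negative of 15 in each of the authors' deposited tables, a share of 53.3% called that lies near those of all listed genes. EPG5, a tether of autophagosomes to lysosomes, was positive at 2.24 (adjusted p = 5.88e-07) and 2.52 (adjusted p = 3.97e-05) in the authors' deposited tables. Against genes of like listed length, EPG5 came to 1.54 and 1.81. SNAP29, a SNARE of that fusion, was negative at -1.83 (adjusted p = 9.11e-07) and -1.51 (adjusted p = 2.04e-05), and RAB7A, the GTPase of late endosomes, at -1.29 (adjusted p = 1.8e-06) and -1.09 (adjusted p = 0.000114), in the authors' deposited tables. In the authors' deposited tables, upstream regulators held 6 positive and 2 negative genes of 13 in the ALKBH5 comparison, and 6 and 4 in that of RBM33, or 61.5% and 76.9% called. Of all listed genes, 59.6% and 51.1% were called there. RPTOR, the substrate-binding subunit of mTOR complex 1, had 1.53 (adjusted p = 1.26e-06) and 1.20 (adjusted p = 8.17e-05) in the authors' deposited tables. TSC1 at 0.86 (adjusted p = 0.000135) and 0.95 (adjusted p = 0.000583), and TSC2 at 0.98 (adjusted p = 2.14e-05) and 0.83 (adjusted p = 0.000815), which together restrain mTOR complex 1, were positive in the authors' deposited tables. Against genes of like listed length, TSC1 came down to 0.16 and 0.25 and TSC2 to 0.29 and 0.13, and RPTOR had 1.13 and 0.78. Other core factors, a list that also holds EPG5, held 2 positive and 3 negative genes of 9 in the ALKBH5 comparison and 3 of each in that of RBM33, or 55.6% and 66.7% called, in the authors' deposited tables. EI24, a membrane protein of the endoplasmic reticulum, had -1.64 (adjusted p = 8.4e-07) and -1.88 (adjusted p = 6.63e-06), and SH3GLB1, a partner of UVRAG, -1.45 (adjusted p = 5.38e-07) and -1.22 (adjusted p = 8.83e-05), in the authors' deposited tables. No gene of these lists was positive in 1 table and negative in the other, and the same count over all listed genes was not made.

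**Figure D4:**
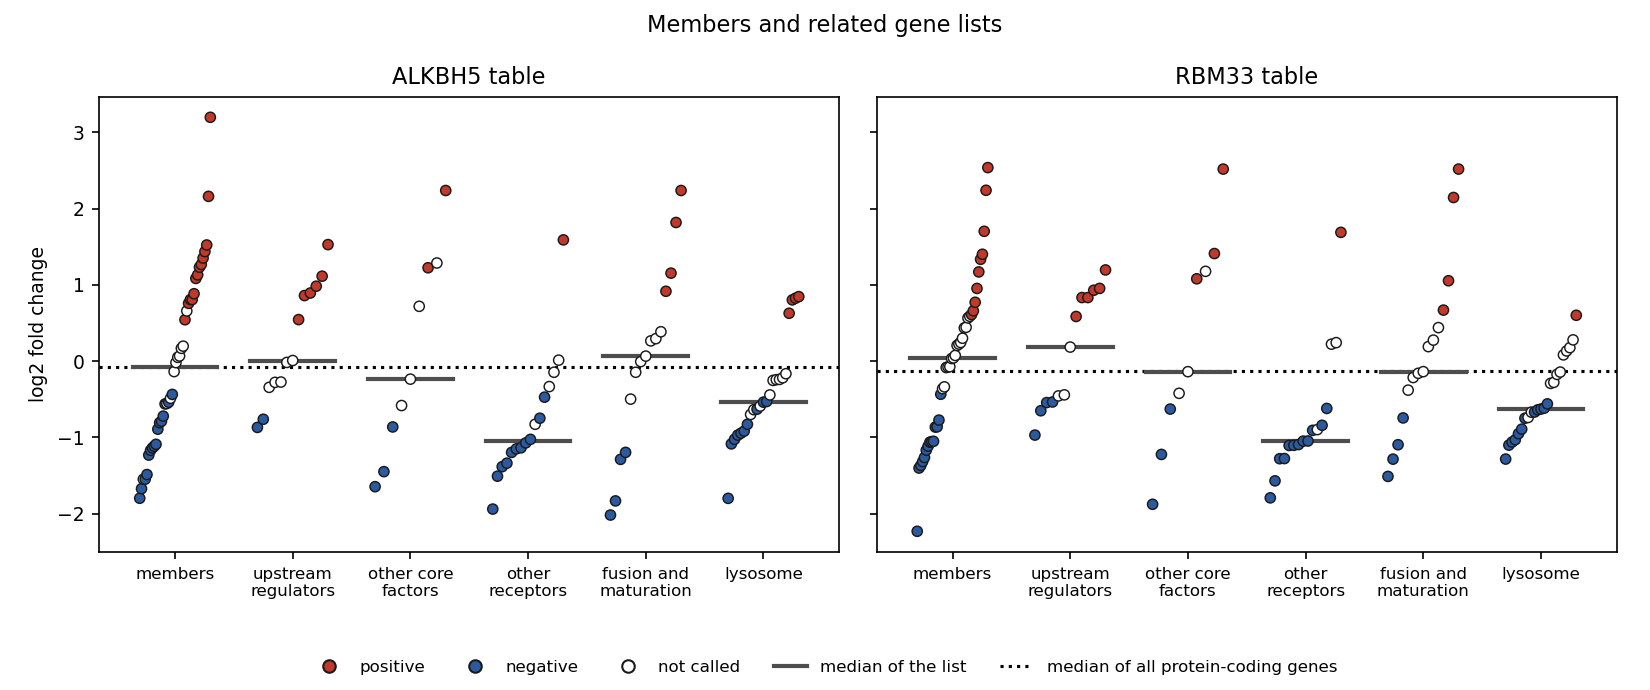
Log2 fold change as deposited for the 40 mRNAs and for 5 lists of related genes in each table; symbols are genes coloured by call, bars are list medians and the dotted line is the median of all protein-coding genes. The other receptors centre on -1.05 in both panels, and the lysosome list on -0.54 and -0.63.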

How the data were processed

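The members and related lists were chosen with earlier results of these data known. Per the submitters' processing notes, the build was hg38 and the tools included edgeR 3.24.3 and, from Subread 1.6.4, featureCounts, with HISAT2 2.1.0 and cutadapt 1.18; low-count filter, annotation release and strand setting: not given in the sources used here. Per the labels' protocols, stranded total RNA libraries were made. The authors' deposited tables hold, per the file headers, log2 fold changes and average log2 CPM. Per the file headers, the F statistic, a score without fixed range, its p-value and adjusted p-value are the authors' edgeR results. The planned count model could not be run on these tables, so the authors' calls were used. Computed here (Python 3.11.15, pandas 2.3.3) were counts, medians, percentiles, abundance per kilobase, overlaps of listed coordinates, and like-length values over 10 classes, tested on simulated data. Recomputing the Benjamini-Hochberg adjustment gave the deposited values. All members are named; adjusted p, abundance and position are given for the 2 smallest p-values per role and table. Of each related list, the 3 genes with the smallest p-values among those called in both tables are named. Adjusted p-values of WIPI1 and of the 6 members called in 1 table, of which ULK3 falls under the rule, as well as remaining named neighbours, were chosen after values were seen. Alternatives were a threshold of 0.01, a minimum of 1 log2 unit, an abundance minimum, adjustment over protein-coding genes and centring. A result for a gene of the lysosomal list that the naming rule chose is not reported here.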

Additional observations from a re-analysis of the deposited data

How the results depend on the processing

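With an adjusted p under 0.01, among mRNAs of at least median abundance, or with adjustment over protein-coding genes alone, the counts of positive and negative mRNAs in the authors' deposited tables stayed within 1.5 times those reported. A minimum of 1 log2 unit lowered the positive calls for ALKBH5 from 14 to 9 and the negative ones from 16 to 9. For RBM33 it lowered the positive calls from 10 to 6 and the negative ones from 14 to 10. The median log2 fold change of the 40 was 0.000508 for ALKBH5 and 0.17 for RBM33 after subtracting the protein-coding median, -0.054 and 0.14 against genes of like length, and -0.29 and -0.075 among mRNAs of at least median abundance. Of the 54 called values, the sign changed for GABARAP in the RBM33 comparison alone, to 0.038 against genes of like length. No paired analysis was possible because single libraries have no values in these tables, and leaving out replicates was not run for the same reason. Depth per library is unknown, so the smallest difference detectable at a given abundance was not computed.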
